A study of Mus musculus with 4 samples.

Results

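The genes described here encode PSGL-1, the main glycoprotein ligand of the selectins on T cells, and glycosyltransferases. These build the glycans through which it binds or, in the case of St6gal1, another linkage of sialic acid. The genes were chosen by name and comprise 9 of the 18193 genes that the arrays measured through a probe set of a single symbol: Selplg, Gcnt1, B4galt1, St3gal1, St3gal4, St3gal6, St6gal1, Fut7 and Fut4. Each gene was read from its probe set of highest mean over the 4 arrays. The arrays held RNA of T cells that carried CD4, sorted after digestion with collagenase and taken from the lamina propria of the large intestine, which lies beneath the epithelium. All cells came from mice of mixed 129/B6 strain, heterozygous for a knock-in of green fluorescent protein (GFP) at the Gpr15 locus, so both groups carried GFP in 1 copy of a gene whose product guides T cells to the large intestine. The GFP-positive group (labelled GPR15+) had 2 arrays and the GFP-negative group (labelled GPR15-) had 2 arrays, and the labels give neither the age of the mice nor how many made up a sample. The comparison asks how the genes of selectin ligand assembly differ between CD4 T cells sorted as GFP-positive and those sorted as GFP-negative.

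Selectins are lectins that catch leukocytes from flowing blood. E-selectin and P-selectin on inflamed endothelium recognise sialyl Lewis x, a cap of sialic acid, galactose, N-acetylglucosamine and fucose that sits on core 2 branched O-glycans at the outer end of PSGL-1. The protein is made by all T cells, while the cap is made chiefly by activated ones, so that in mice the enzymes and not the carrier are regarded as the limiting step. Gut homing T cells are known to rely more on integrins and chemoattractant receptors, and skin homing cells on these glycans.

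The sort was visible in Gpr15 itself, with signals of 619 and 729 on the GFP-positive arrays, against 146 and 162 on the GFP-negative arrays. Summed over 6 defining genes of CD4 T cells (Cd3e, Cd3d, Cd3g, Cd4, Cd5 and Cd2), the signal was 13134 and 11176 in GFP-positive cells, against 13301 and 12771 in GFP-negative cells. Markers of other cell types were present on all arrays. Their summed signals were 6691 and 4579 (GFP-positive) against 4086 and 4793 (GFP-negative) for 7 B and plasma cell genes, 328 and 724 against 204 and 307 for 8 myeloid genes, 1494 and 471 against 414 and 474 for 6 epithelial genes, and 509 and 798 against 368 and 937 for 6 stromal and endothelial genes. No marker of these lists was at 0, and in each pair the first value is replicate 1. Without overlap, 2 of 6 tested B and plasma cell genes, 4 of 6 myeloid genes, 2 of 5 epithelial genes and 0 of 4 stromal and endothelial genes were higher in GFP-positive cells, against 28.7% of all tested genes. Of the myeloid genes, Csf1r and Itgax were bright enough to be tested only through their GFP-positive arrays. The endothelial gene Pecam1 was the 1 tested gene of these lists of other cell types that was lower without overlap, at -0.60, against 18.6% of all tested genes. Among the CD4 T cell genes, Cd3e and Cd3d were lower without overlap, at -0.16 and -0.27, and Cd2 was higher, at 0.34. Of the CD8 and NK cell markers only Cd8a was tested, and it was higher without overlap, at 0.44. Jchain made up most of the B and plasma cell sum, with 6219 and 4093 in GFP-positive cells, against 3852 and 4455 in GFP-negative cells. The replicate number went with sex: the X inactivation transcript Xist had signals of 4313 and 112 in GFP-positive cells, against 4172 and 55.1 in GFP-negative cells. Differences within each number are therefore given beside the pooled ones for the 9 genes and for pathway genes at least 2-fold apart. The number of arrays limits the precision of every value, and since the labels do not give the number of mice, the p-values speak to the spread among these samples alone, which includes the difference in sex between the 2 arrays of each group.

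Across the 9 genes no difference passed the test. At an adjusted p under 0.05 limma called 0 of 9, where it called 0.0326% of the 12255 tested genes, and 1 of 9 had an unadjusted p under 0.05, against 14.5% of tested genes. The groups did not overlap for 3 of 9 genes, against 47.4% of tested genes: Gcnt1 was higher, and St3gal6 and St6gal1 were lower, on both GFP-positive arrays. None of the 9 differed by 2-fold or more with groups that did not overlap, as 4.71% of tested genes did. The median difference of the 9, GFP-positive minus GFP-negative, was -0.01 on the log2(signal + 16) scale, against 0.07 for all tested genes, and under median scaling these medians were -0.27 and -0.20. All differences below are on this log2 scale, which understates those of dim genes, and stand with 95% intervals from the same fit. In RNA of a sorted mixture, fewer cells that express a gene cannot be told apart from less RNA of it per cell.

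**Figure D1:**
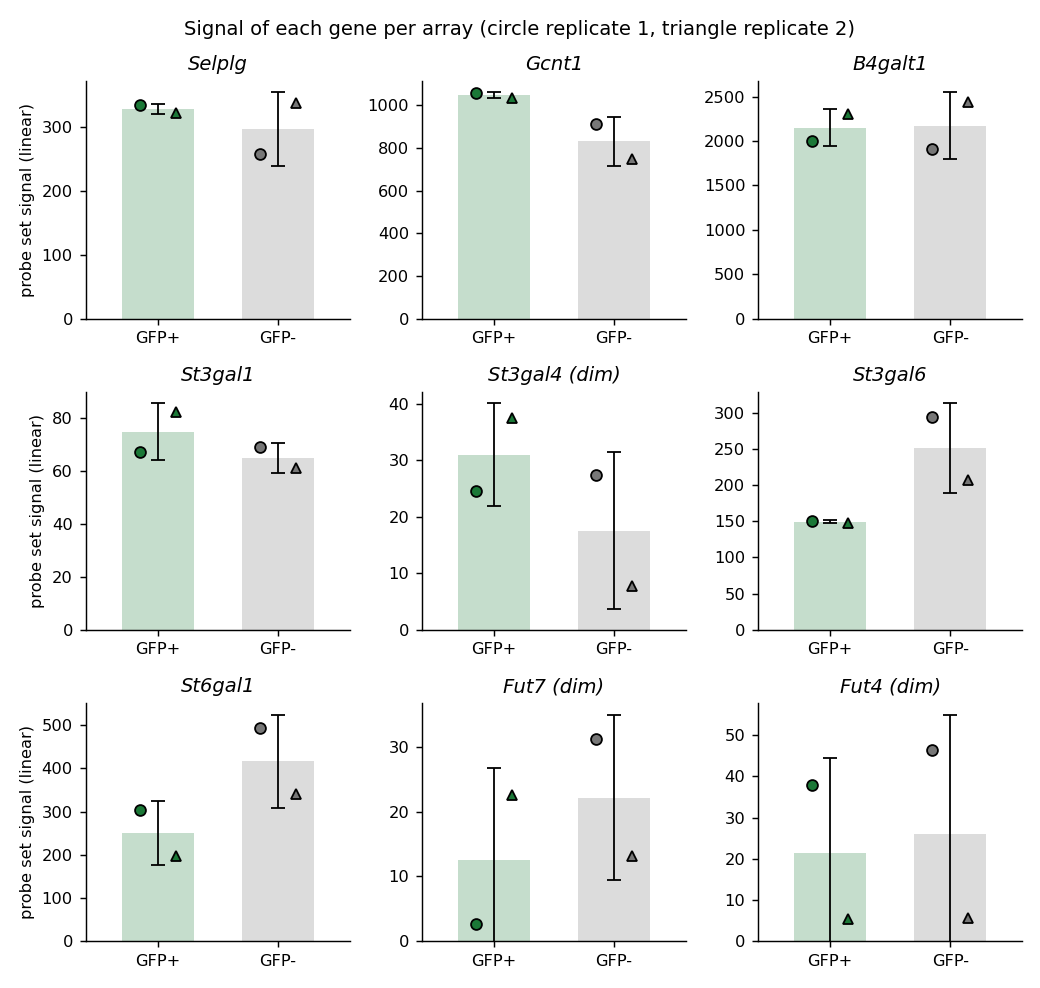
Deposited probe set signal (linear scale, from 0) of each of the 9 genes, with GFP-positive arrays on the left of each panel and GFP-negative arrays on the right. Bars are means of 2 arrays, lines are SD (ending at 0 where they would pass it), circles are replicate 1 and triangles replicate 2; only for Gcnt1, St3gal6 and St6gal1 do the points of the groups not overlap.

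The carrier came first in the comparison. Selplg, which encodes PSGL-1, had signals of 334 and 322 in GFP-positive cells, against 257 and 338 in GFP-negative cells. The groups overlapped, and the lowest array was GFP-negative replicate 1. The difference was 0.15 (-0.43 to 0.72; adjusted p = 0.816 by limma), with 0.36 and -0.07 within replicates 1 and 2, and it turned to -0.16 under median scaling and to -0.04 without GFP-negative replicate 1. The interval leaves out a difference of 2-fold in either direction on this scale.

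The branch and its extension are the steps next to the protein. Gcnt1 encodes the core 2 branching enzyme, which adds the N-acetylglucosamine arm that carries the cap. Its signals were 1056 and 1036 in GFP-positive cells, against 912 and 748 in GFP-negative cells. Both GFP-positive arrays lay above both GFP-negative arrays. The difference was 0.34 (-0.21 to 0.88; adjusted p = 0.537 by limma), with 0.21 and 0.46 within replicates 1 and 2. A second, dimmer probe set of Gcnt1 had signals of 148 and 155 in GFP-positive cells, against 133 and 87.1 in GFP-negative cells, also without overlap, and a difference of 0.43 (-0.21 to 1.08). Under median scaling the difference of Gcnt1 was 0.02. B4galt1 encodes the galactosyltransferase that extends this arm and many other glycans. It had signals of 2002 and 2302 in GFP-positive cells, against 1905 and 2438 in GFP-negative cells. The groups overlapped fully, the GFP-positive arrays lying between the GFP-negative ones. The difference was -0.01 (-0.59 to 0.58; adjusted p = 0.995 by limma), with 0.07 and -0.08 within replicates 1 and 2, and 98.9% of tested genes differed by at least as much. It was 0.07 under quantile and under cyclic loess normalization and -0.32 under median scaling.

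Sialyltransferases of the ST3Gal family cap galactose with sialic acid, and their differences had both signs. St3gal6 encodes an enzyme that, in mice, works with ST3Gal-IV on selectin ligands. Its signals were 150 and 147 in GFP-positive cells, against 294 and 207 in GFP-negative cells. Both GFP-positive arrays were close to each other and below both GFP-negative arrays. The difference was -0.68 (-1.29 to -0.07), a GFP-negative level 1.6 times the GFP-positive one on this scale, with -0.90 and -0.45 within replicates 1 and 2. The unadjusted p was 0.0354 and the adjusted p 0.318 by limma, so the difference did not pass over all genes, and 14.7% of tested genes differed by as much. Over 14 alternative settings the adjusted p was lowest under median scaling, at 0.188, and the difference ran from -0.97 under median scaling to -0.44 without GFP-negative replicate 1.

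St3gal6 has 5 probe sets, and they did not all give the same picture. A second probe set had signals of 78.8 and 37.2 in GFP-positive cells, against 152 and 90.2 in GFP-negative cells, and a difference of -0.91 (-1.83 to 0.01). Another had 3.53 and 32.6 in GFP-positive cells, against 46.1 and 46.6 in GFP-negative cells, and a difference of -1.02 (-2.09 to 0.06). In both, as in the brightest, the GFP-positive arrays were the lower ones without overlap. The remaining 2 probe sets were dim, meaning below the 40th percentile of probe sets, a signal of about 27.3. Their differences were -0.27 (-0.81 to 0.27), without overlap, and 0.23 (-0.93 to 1.40), with overlap. The probe set at -1.02 lay above the dim level only through its GFP-negative arrays. Its lower side is therefore not counted as agreement with the brightest.

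**Figure D2:**
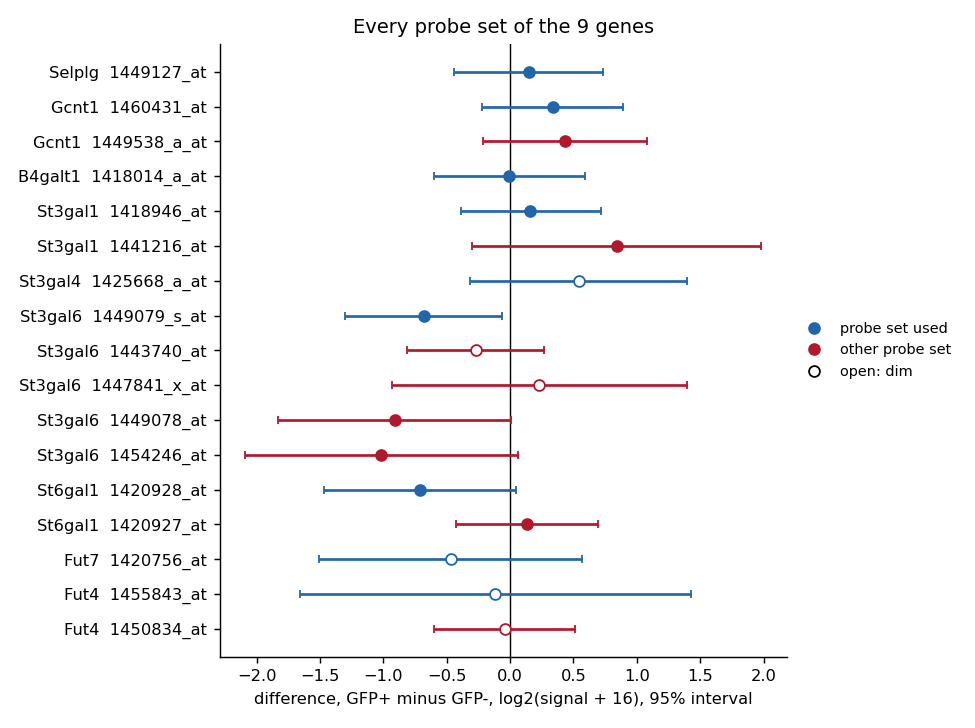
Difference between GFP-positive and GFP-negative arrays on the log2(signal + 16) scale, with its 95% interval, for each of the 17 probe sets of the 9 genes. Blue marks the probe set used for the gene, red the others, and open symbols dim probe sets. Of the 5 St3gal6 probe sets, 4 lie below 0. These include the dim probe set at -0.27 and that at -1.02, which lay above the dim level only through its GFP-negative arrays. The St6gal1 probe sets lie on opposite sides.

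St6gal1 stands apart by its chemistry. It encodes the sialyltransferase that attaches sialic acid to galactose through the other common linkage, mostly on N-glycans. This linkage gives ligands of the lectin CD22 and of no selectin, and the enzyme shares an acceptor with some of the ST3Gal enzymes. Its signals were 303 and 198 in GFP-positive cells, against 494 and 340 in GFP-negative cells. Both GFP-positive arrays lay below both GFP-negative arrays, and within each group the replicate 1 array was the higher. The difference was -0.71 (-1.47 to 0.05; adjusted p = 0.367 by limma), the farthest from 0 among the 9, with -0.68 and -0.74 within replicates 1 and 2, and 13.3% of tested genes differed by as much. A second, dimmer probe set had 49.1 and 62.9 in GFP-positive cells, against 52.0 and 47.2 in GFP-negative cells, with overlap and a difference of 0.13 (-0.43 to 0.69). The mean of both was -0.29, while median scaling gave -1.01, beside a median of -0.20 over all genes. Without GFP-positive replicate 2 the difference was -0.42 and without GFP-negative replicate 1 it was -0.45. B cells are known for high St6gal1. Of the 6 tested B and plasma cell markers, 0 were lower in GFP-positive cells without overlap and 2, Ms4a1 and Ighm, were higher, at 0.47 and 0.88; their part in the result was not tested.

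The promoters of St3gal6 and St6gal1 are shown because these genes had the lower signals in GFP-positive cells. RefSeq's table for GRCm38.p6 held windows for 7 of the 9 genes, 13 in all, each read as the 250 bases before an annotated start, 5′ to 3′ on the gene's own strand. They were searched on both strands for the core letters of 6 factor families active in T cells. The RUNX letters, bound by a family that shapes helper and killer lineages, were TGTGGT. Those of T-box factors such as T-bet, the product of Tbx21, were GGTGTG. The GATA letters, named for a family that includes the type 2 helper factor, were AGATAA. Forkhead letters, as for Foxo and Foxp proteins, were TGTTTAC. The letters of TCF proteins, partners of beta-catenin, were CTTTGA. For ETS proteins, a large family active in all lymphocytes, they were CCGGAA. RUNX and T-box letters can overlap, but no matches overlap in the windows printed, where capitals mark the matches.
St3gal6, chr16:58524254-58524503, minus strand: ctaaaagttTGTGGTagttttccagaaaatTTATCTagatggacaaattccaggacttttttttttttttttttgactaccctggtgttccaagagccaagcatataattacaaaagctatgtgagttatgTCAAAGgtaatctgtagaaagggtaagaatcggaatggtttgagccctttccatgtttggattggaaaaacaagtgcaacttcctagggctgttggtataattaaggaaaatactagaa
St6gal1, chr16:23224490-23224739, plus strand: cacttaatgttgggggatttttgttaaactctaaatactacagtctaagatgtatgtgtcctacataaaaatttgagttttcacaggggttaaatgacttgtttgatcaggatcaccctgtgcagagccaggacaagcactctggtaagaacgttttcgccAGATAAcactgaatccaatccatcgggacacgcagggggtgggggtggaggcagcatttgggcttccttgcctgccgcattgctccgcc
St6gal1, chr16:23225771-23226020, plus strand: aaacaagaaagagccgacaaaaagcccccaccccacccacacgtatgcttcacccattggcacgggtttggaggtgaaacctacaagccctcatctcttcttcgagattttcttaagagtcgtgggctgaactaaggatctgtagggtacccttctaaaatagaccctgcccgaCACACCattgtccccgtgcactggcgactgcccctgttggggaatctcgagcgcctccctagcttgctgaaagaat
The St3gal6 window holds RUNX letters that begin 241 bases before the start, GATA letters (on the opposite strand) at 220 and TCF letters (on the opposite strand) at 119. The upper St6gal1 window holds GATA letters at 89 bases before its start, and the lower one T-box letters on the opposite strand at 76. A further window of each gene held no match. Among the other members, B4galt1 and Fut7 held RUNX letters, and Fut7 also held GATA letters. RUNX and GATA letters were each in 3 of the 13 windows, and T-box and TCF letters each in 1. Over all 32851 windows of the table the share with a match was 14.0% for RUNX, 16.3% for T-box, 9.99% for GATA and 13.8% for TCF, and it was 3.17% for forkhead and 12% for ETS, which had no match in the 13 windows. A match describes letters only.

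The other ST3Gal members did not separate the groups on the probe sets used. St3gal1 encodes the enzyme that caps the core 1 arm and competes with core 2 branching. It had signals of 67.2 and 82.3 in GFP-positive cells, against 68.8 and 60.9 in GFP-negative cells. The groups overlapped, and the difference was 0.16 (-0.38 to 0.71; adjusted p = 0.774 by limma), with -0.03 and 0.35 within replicates 1 and 2. It was 0.00 under quantile normalization, -0.10 under median scaling, and 0.50 with the mean of its probe sets. The second of these had 51.0 and 49.2 in GFP-positive cells, against 6.49 and 44.3 in GFP-negative cells. It was higher without overlap, with a difference of 0.84 (-0.30 to 1.98). That probe set lay above the dim level only through its GFP-positive arrays, so its higher side is not counted. St3gal4, the main sialyltransferase of selectin ligands on mouse leukocytes, was dim, with 24.6 and 37.4 in GFP-positive cells, against 27.3 and 7.66 in GFP-negative cells. The groups overlapped, the lowest array was GFP-negative replicate 2. The difference was 0.54 (-0.32 to 1.40), with -0.09 and 1.18 within replicates 1 and 2, or 0.10 without that array.

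Fucose is the last sugar of the cap. Fut7 encodes the fucosyltransferase that completes sialyl Lewis x on T cells, and Fut4 a second enzyme that adds to it. Both were dim. Fut7 had signals of 2.60 and 22.6 in GFP-positive cells, against 31.3 and 13.2 in GFP-negative cells. The replicate 1 arrays held both the lowest and the highest value, and the groups overlapped. The difference was -0.47 (-1.52 to 0.58; adjusted p = 0.658 by limma), with -1.35 and 0.41 within replicates 1 and 2. It was -1.21 with a pseudocount of 1, -0.17 with a pseudocount of 64 and 0.06 without GFP-positive replicate 1, so its size depended on the pseudocount and its sign on that array. Fut4 had signals of 37.9 and 5.24 in GFP-positive cells, against 46.4 and 5.51 in GFP-negative cells. On this probe set the signals followed the replicate number and not the sort, high on both replicate 1 arrays and low on both replicate 2 arrays. The difference was -0.12 (-1.69 to 1.46), with -0.21 and -0.02 within replicates 1 and 2, and it was 0.65 without GFP-negative replicate 1 and 0.56 without GFP-positive replicate 2. The intervals of both genes, on the probe sets used, include differences of more than 2-fold. A second, dimmer probe set of Fut4 had signals of 6.02 and 5.87 in GFP-positive cells, against 8.88 and 4.51 in GFP-negative cells. Its groups overlapped, with a difference of -0.04 (-0.60 to 0.51), and it did not show the wide gap between replicate numbers.

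**Figure D3:**
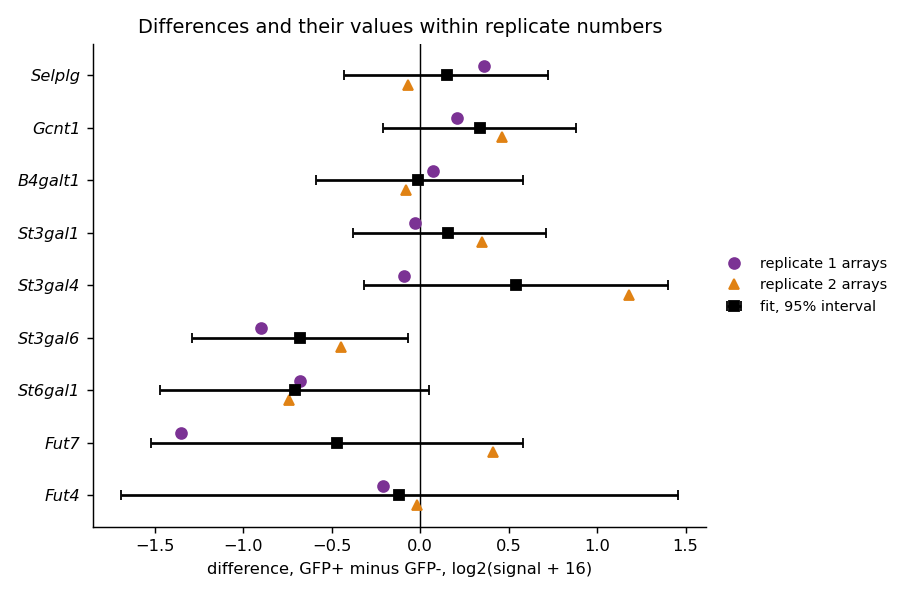
Difference of each of the 9 genes, GFP-positive minus GFP-negative, on the log2(signal + 16) scale: squares with 95% intervals from the fit, circles for the replicate 1 arrays alone and triangles for the replicate 2 arrays alone. St6gal1 and St3gal6 lie below 0 within both replicate numbers, Gcnt1 above 0 within both, and the circles and triangles of Fut7 lie on opposite sides.

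Within the replicate numbers, 5 of 9 genes had differences of opposite sign, against 35.6% of tested genes. The 4 of equal sign were Gcnt1, St3gal6, St6gal1 and Fut4. The scalings bear on the smaller differences: Selplg and St3gal1 had the opposite sign under median scaling, and B4galt1 under quantile and cyclic loess normalization, while St3gal6 and St6gal1 stayed below 0, and Gcnt1 and St3gal4 above 0, under all 3.

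**Figure D4:**
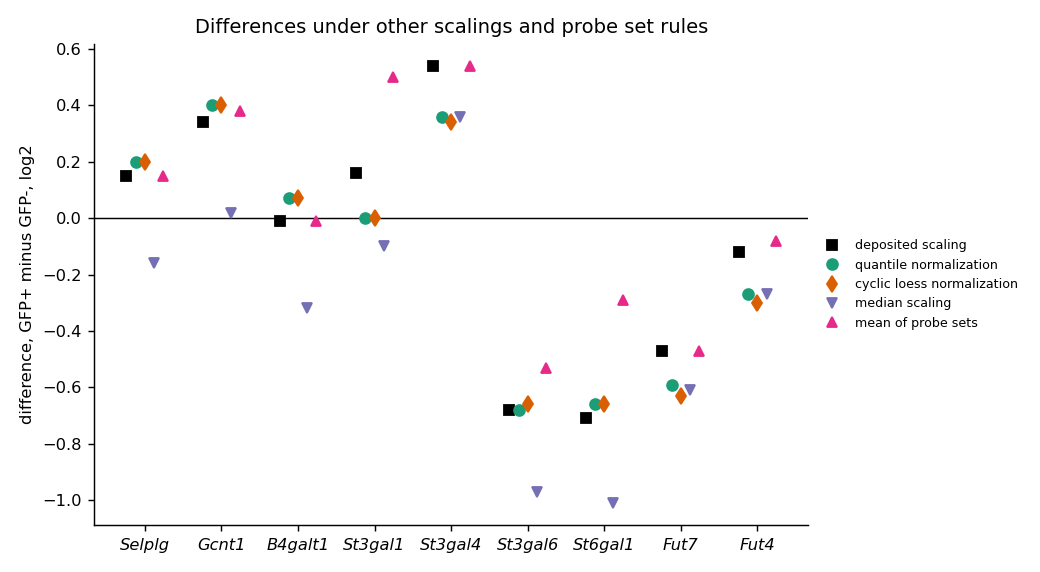
Difference of each gene, GFP-positive minus GFP-negative, in log2 units, under the deposited scaling, 3 other normalizations and the mean of a gene's probe sets. St3gal6 and St6gal1 lie below 0 under each, and median scaling gives the lowest value for 6 of the 9 genes (all but St3gal4, Fut7 and Fut4).

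The profile nearest to that of St6gal1, the member of largest absolute difference, was sought among all tested genes by Euclidean distance between mean-centred log2 values over the 4 arrays. The nearest were Lpcat3, a phospholipid acyltransferase, at a distance of 0.06, Txndc15 at 0.09 and Ppp1r15a, a stress-induced phosphatase subunit, at 0.09. Lpcat3 had 32.6 and 16.4 in GFP-positive cells, against 62.8 and 41.0 in GFP-negative cells. Its GFP-positive mean of 24.5 was below the 27.3 of the filter. It was tested only through its GFP-negative arrays, so it had to be lower, as St6gal1 was. Txndc15 had 303 and 212 in GFP-positive cells, against 515 and 338 in GFP-negative cells. With 4 arrays such likeness describes these arrays only.

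The wider pathway was taken from lists of 92 further genes, of which 88 had a probe set and 75 were bright enough to be tested. Of these 75, limma called 0 at an adjusted p under 0.05, and at an unadjusted p under 0.05 there were 7 higher and 6 lower, where the shares of all tested genes were 10.2% and 4.37%. The groups did not overlap for 23 that were higher and 12 that were lower, against 28.7% and 18.6% of tested genes. By size, 1 was at least 2-fold higher and 3 at least 2-fold lower without overlap, against 3.39% and 1.31% of tested genes. Of the 3 lower genes, Fcsk and Neu1 had GFP-positive signals below the 27.3 of the filter. They were tested only through their GFP-negative arrays, so that they had to be lower. Both are also among the 12, and among the 6 lower genes with an unadjusted p under 0.05 by limma. With a 60th percentile filter the count at least 2-fold lower was 1. Among the 23, Fut10 and St6galnac4 had GFP-negative signals below the filter. These were tested only through their GFP-positive arrays and had to be higher.

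**Figure D5:**
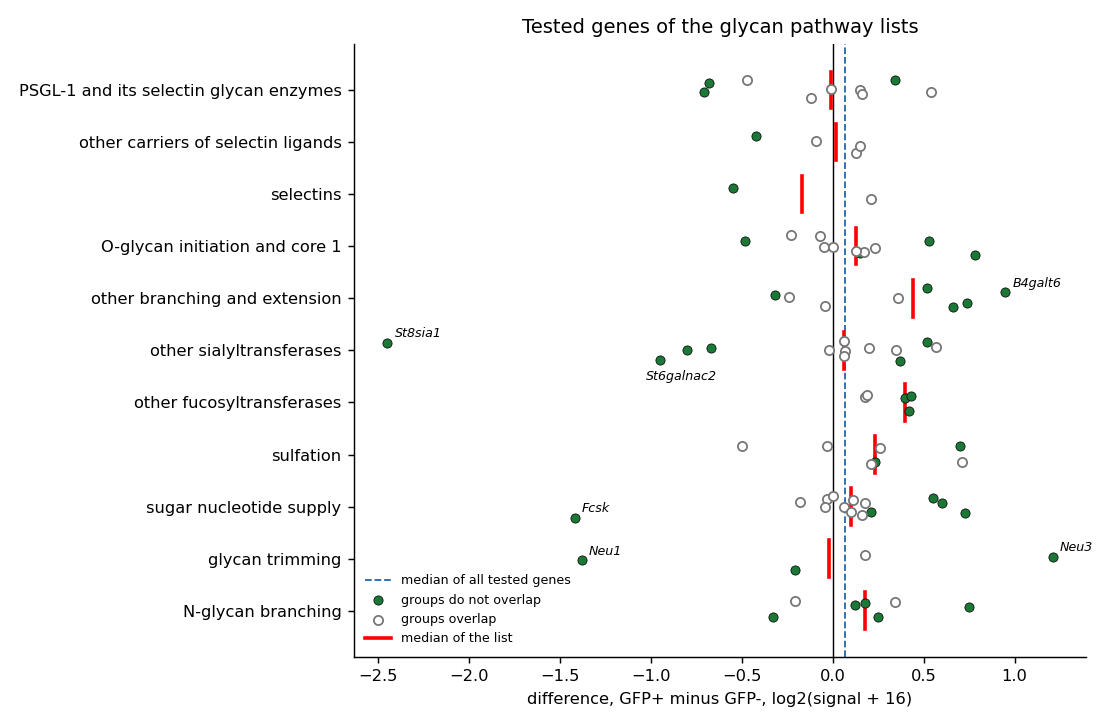
Difference of every tested gene of the glycan pathway lists and, in the top row, of the 9 genes, GFP-positive minus GFP-negative, on the log2(signal + 16) scale, by list. Filled points are genes whose groups did not overlap, red bars list medians and the dashed line the median of all tested genes at 0.07; St8sia1, at -2.45, lies farthest from 0.

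Among 13 other sialyltransferases, 4 lower and 0 higher genes had an unadjusted p under 0.05 by limma, against 4.37% and 10.2% of tested genes. Without overlap, 4 were lower and 2 higher, against 18.6% and 28.7% of tested genes. Of the 2 higher, St6galnac4 passed the filter only through its GFP-positive arrays. The median of the list was 0.06, turning to -0.02 under quantile normalization and -0.21 under median scaling. St8sia1 encodes the enzyme that makes ganglioside GD3 by adding sialic acid to sialic acid. It had signals of 139 and 408 in GFP-positive cells, against 1148 and 1660 in GFP-negative cells. Both GFP-positive arrays were below both GFP-negative ones, and the difference was -2.45 (-3.68 to -1.21; adjusted p = 0.182 by limma), with -2.91 and -1.98 within replicates 1 and 2. It passed, at an adjusted p of 0.0201, only with a pseudocount of 64 among 14 settings, and the other 2 tested probe sets of St8sia1 gave -2.08 and -0.02. St6galnac2, which acts on the first sugar of O-glycans, had 244 and 273 in GFP-positive cells, against 640 and 412 in GFP-negative cells, a difference of -0.95 (-1.63 to -0.27; adjusted p = 0.260 by limma), while a second probe set gave 0.37. St8sia6 differed by -0.80 (-1.36 to -0.23), with its other probe sets at -0.97 and -0.85. St3gal2 differed by -0.67 (-1.30 to -0.05), with its other probe sets at 0.01 and 0.47. St8sia4, which makes polysialic acid, had 2539 and 2206 in GFP-positive cells, against 2416 and 2373 in GFP-negative cells, and a difference of -0.02 (-0.54 to 0.51).

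Sialidases remove sialic acid, and the genes of this kind that were tested were Neu3 and Neu1. Neu3 encodes the sialidase of the plasma membrane, which prefers gangliosides. It had signals of 1173 and 1184 in GFP-positive cells, against 616 and 409 in GFP-negative cells. The GFP-positive arrays were close to each other and lay above both GFP-negative arrays, and the difference was 1.21 (0.55 to 1.86; adjusted p = 0.196 by limma), with 0.91 and 1.5 within replicates 1 and 2. Its adjusted p was 0.0146 with trend and robust settings and 0.0348 with a pseudocount of 64, and between 0.0975 and 0.458 in the other 12 settings. Neu1, the lysosomal sialidase, had 26.5 and 6.15 in GFP-positive cells, against 59.1 and 68.8 in GFP-negative cells. The difference was -1.38, with -0.82 and -1.94 within replicates 1 and 2 and a second probe set at -0.51. Neu1 passed the filter only through its GFP-negative arrays and had to be lower, so its sign is not set against that of Neu3. The fucosidase genes Fuca1 and Fuca2 differed by -0.21 (-0.73 to 0.31) and 0.18 (-0.54 to 0.89), with other probe sets at 0.05 and 0.31 for Fuca1 and 1.29 for Fuca2.

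Galactosyl and branching enzymes other than the members had a median difference of 0.44 over 8 tested genes, or 0.19 under median scaling. B4galt6, which makes lactosylceramide, had 172 and 278 in GFP-positive cells, against 98.5 and 114 in GFP-negative cells. All 4 of its probe sets were higher, and that of the highest mean by 0.95 (0.24 to 1.65; adjusted p = 0.268 by limma). B4galt4 differed by 0.66 (0.04 to 1.27) and B3gnt5, which starts lacto-series glycolipids, by 0.52 (-0.04 to 1.08). Gcnt3, the core 2 enzyme of mucosal epithelium, had 123 and 97.2 in GFP-positive cells, against 37.1 and 89.5 in GFP-negative cells, a difference of 0.74 (-0.16 to 1.65), with 1.39 and 0.10 within replicates 1 and 2. The 6 epithelial markers summed to 1494 and 471 in GFP-positive cells, against 414 and 474 in GFP-negative cells. Of the 5 tested, Epcam and Cldn7 were higher without overlap, by 1.64 and 0.65, while Krt8, Cdh1 and Krt20 overlapped, at 0.84, 0.41 and -0.20, and were lower in GFP-positive cells within replicate 2. Their part in the Gcnt3 value was not tested. The bright Gcnt2 and B3gnt2 differed by -0.24 (-1.0 to 0.52) and -0.04 (-0.58 to 0.50), and B3gnt2 was 0.02 under quantile normalization.

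O-glycan initiation had differences of both signs. Galnt2, which starts O-glycans on serine and threonine, had 518 and 653 in GFP-positive cells, against 348 and 318 in GFP-negative cells, a difference of 0.78 (0.21 to 1.34; adjusted p = 0.261 by limma), with its other probe sets at 0.44 and 0.69. Galnt7 differed by -0.48 (-1.15 to 0.19), Galnt4 by 0.15 (-0.36 to 0.65) with a second probe set at -0.74, and the bright Galnt1 by -0.05 (-0.65 to 0.54). C1galt1c1, the chaperone of the core 1 enzyme, differed by 0.53 (-0.12 to 1.17). The median of the 11 tested genes was 0.13, or -0.14 under median scaling.

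Fucose reaches the Golgi as GDP-fucose, made by a main route and by salvage of the free sugar. Fcsk, the kinase that recycles free fucose, had 11.4 and 10.2 in GFP-positive cells, against 44.8 and 68.5 in GFP-negative cells, a difference of -1.42, with -1.15 and -1.69 within replicates 1 and 2. It passed the filter only through the GFP-negative arrays and had to be lower, so its sign is not set against that of Fpgt. Fpgt, the next enzyme of that route, had 182 and 178 in GFP-positive cells, against 102 and 125 in GFP-negative cells. Its difference was 0.60 (0.07 to 1.14). Gmds and Slc35c1, of the main route to GDP-fucose and of its entry into the Golgi, differed by 0.06 (-0.45 to 0.58) and -0.18 (-0.77 to 0.42). Both were chosen after their values were seen. The other supply genes named by the rule, Uap1, Nanp and Slc35a3, differed by 0.55 (-0.01 to 1.12), 0.73 (-0.13 to 1.58) and 0.16 (-0.50 to 0.81). Of 8 other fucosyltransferase genes, 5 were tested. Fut10, Pofut1 and Pofut2 were higher without overlap, as 28.7% of all tested genes were. Their differences were 0.42, 0.40 and 0.43, with intervals that include 0, while another probe set of Pofut2 gave -0.86. Fut10 had GFP-negative signals of 26.9 and 22.4, below the 27.3 of the filter. It passed only through its GFP-positive arrays, so it had to be higher.

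Sulfation adds to PSGL-1 tyrosines that P-selectin needs. Tpst2, the tyrosine sulfotransferase gene bright enough to test, had 284 and 290 in GFP-positive cells, against 251 and 234 in GFP-negative cells, a difference of 0.23 (-0.28 to 0.74), or -0.07 under median scaling. Chst1, a sulfotransferase of galactose, had 85.5 and 98.0 in GFP-positive cells, against 46.8 and 53.9 in GFP-negative cells, a difference of 0.70 (0.17 to 1.23; adjusted p = 0.270 by limma). Slc35b3, a carrier of the sulfate donor, differed by -0.03 (-0.57 to 0.51). Among N-glycan branching genes Mgat4b differed by 0.75 (0.10 to 1.40), Mgat5 by 0.25 (-0.27 to 0.77), Mgat2 by 0.18 (-0.33 to 0.68) and Man2a2 by -0.33 (-0.86 to 0.19).

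Other proteins that can carry selectin ligands had small differences of both signs. Cd44 had 3835 and 3260 in GFP-positive cells, against 3596 and 2888 in GFP-negative cells, a difference of 0.13 (-0.45 to 0.71), and Cd24a differed by 0.15 (-0.65 to 0.94). Spn, which encodes CD43, had 375 and 397 in GFP-positive cells, against 589 and 461 in GFP-negative cells, a difference of -0.42 (-0.98 to 0.15). Of the selectin genes themselves, Selp and Sele, known from platelets and endothelium, had signals between 23.3 and 71.9 on all 4 arrays and differed by -0.55 (-1.23 to 0.14) and 0.21 (-0.57 to 0.99). Pecam1, another endothelial gene, had 50 and 77.4 in GFP-positive cells, against 112 and 94.0 in GFP-negative cells, and its part in the Selp value was not tested. Tbx21 and Stat4 encode factors of the type 1 helper response that are known to raise Fut7 and Gcnt1 in T cells. Tbx21 had 47.0 and 35 in GFP-positive cells, against 195 and 92.7 in GFP-negative cells, a difference of -1.42 (-2.31 to -0.53), and Stat4 had 1702 and 1800 in GFP-positive cells, against 1302 and 1346 in GFP-negative cells, a difference of 0.40 (-0.11 to 0.91). Neither passed, with adjusted p of 0.230 and 0.433 by limma.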

How the data were processed

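RNA of the sorted cells, extracted with Trizol, was biotin-labelled and hybridised to Affymetrix arrays, per the labels' protocols. The authors deposited 1 intensity a probe set on a linear scale; the summary method is not given in the sources used here. Each array had a mean of 150.0 after trimming 2% at each end, so the authors' values appear scaled by a single factor, without quantile normalization. The series text once writes the GFP-negative cells as lacking CD4, against its title and the sample labels, which were followed.

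Signals were taken to log2 after adding 16. Of 45101 probe sets, 34945 had 1 gene symbol in the platform annotation, 932 several and 9211 none. Genes above the 40th percentile of probe sets, and the 9 members and Gpr15 at any level, were tested with limma 3.58.1 in R 4.3.3 (lmFit, eBayes, group as the only term, 2 residual and 3.74 prior degrees of freedom, Benjamini-Hochberg adjustment over 12255 genes), a procedure tested on simulated data. The members and lists were chosen with earlier results of these data known. Of each list, any called gene, up to 4 genes of largest difference with groups apart and the 2 brightest were named. Genes without such a probe set and detection calls were not used here. Alternatives covered pseudocount, filter, normalization, probe set rule, variance model, replicate block and leaving out arrays.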

Additional observations from a re-analysis of the deposited data

How the results depend on the processing

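Over the 14 alternatives limma called 0 of the 9 genes in each, and St3gal6, St6gal1, Gcnt1 and St3gal4 kept their sign in each. Among all genes the 4 calls at an adjusted p under 0.05 became 0 with a pseudocount of 1, without the filter on dim genes, with quantile, cyclic loess or median scaling, with the replicate block and without any single array (0 to 0), where between 1210 and 2188 genes had an unadjusted p under 0.05. They became 175 with a pseudocount of 64, 50 with a 60th percentile filter and 240 with trend and robust settings. No label says that same-numbered arrays share a mouse or a batch. They share sex by Xist, and their deviations from the group means correlated at 0.198 over 12255 genes, so the block is given as an alternative only. Genes at least 2-fold higher without overlap, 416 as reported, numbered 896 and 107 with pseudocounts of 1 and 64, 683 without the filter, 232 with the 60th percentile filter, 266 and 259 with quantile and loess normalization, 163 with median scaling, 274 with the mean of probe sets, and 512 to 670 with 1 array left out. Those lower, 161 as reported, numbered 250 and 75 with pseudocounts of 1 and 64, 406 with median scaling, 93 with the mean of probe sets and 202 to 302 with 1 array left out. Of the pathway genes, 1 was higher as reported, 3 with a pseudocount of 1, 0 with median scaling and 2 to 4 with 1 array left out, and 3 were lower as reported, 1 with a pseudocount of 64, the 60th percentile filter or the mean of probe sets, 5 with median scaling and 3 to 4 with 1 array left out. Of the 9 genes, 0 were at least 2-fold apart as reported and 1, St6gal1, with median scaling.

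Differences of opposite sign to those reported were, with quantile normalization, 0.02 for B3gnt2, 0.07 for B4galt1, 0.00 for Galnt1, 0.04 for Slc35b3, 0.00 for St3gal1 and 0.04 for St8sia4. With cyclic loess they were 0.04 for B3gnt2, 0.07 for B4galt1, 0.02 for Galnt1, -0.03 for Sele, 0.03 for Slc35b3 and 0.06 for St8sia4. With median scaling they were -0.17 for Cd24a, -0.19 for Cd44, -0.14 for Fuca2, -0.14 for Galnt4, -0.13 for Mgat2, -0.07 for Mgat5, -0.01 for Sele, -0.16 for Selplg, -0.16 for Slc35a3, -0.10 for St3gal1 and -0.07 for Tpst2. With the mean of probe sets they were 0.00 for Galnt4 and -0.10 for Mgat2. Leaving out 1 array in turn gave -0.17 to 0.09 for B3gnt2, -0.18 to 0.17 for B4galt1, -0.28 to 0.57 for Cd24a, -0.02 to 0.29 for Cd44, -0.13 to 0.48 for Fuca2, -0.88 to 0.65 for Fut4, -1.0 to 0.06 for Fut7, -0.24 to 0.13 for Galnt1, -0.63 to 0.15 for Gcnt2, -0.15 to 0.56 for Sele, -0.04 to 0.33 for Selplg, -0.08 to 0.39 for Slc35a3, -0.16 to 0.09 for Slc35b3 and -0.12 to 0.08 for St8sia4. With 1 array left out, the lone array of its group is assumed to vary like the other group. The cause of these shifts was not tested. With 2 arrays a group, signals near background (Fut7, Fut4 and St3gal4) give wide intervals.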

Other observations

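St3gal6 lies near Gpr15 on mouse chromosome 16, with 3 protein-coding genes of RefSeq's annotation between them. The flanking genes were looked at after the values of St3gal6 were seen, and they are given as values. Cpox, which encodes an enzyme of haem synthesis and is the nearest gene on that side, had signals of 1165 and 1415 in GFP-positive cells, against 660 and 729 in GFP-negative cells, a difference of 0.87 (0.32 to 1.43; adjusted p = 0.232 by limma). Cldnd1, on the other side, had signals of 3946 and 3883 in GFP-positive cells, against 2401 and 2391 in GFP-negative cells, a difference of 0.70 (0.20 to 1.21; adjusted p = 0.257 by limma). Dcbld2, beyond St3gal6, had signals of 120 and 115 in GFP-positive cells, against 86.0 and 95 in GFP-negative cells, a difference of 0.33 (-0.18 to 0.84). These 3 genes were higher in GFP-positive cells without overlap, as 28.7% of all tested genes were. Gpr15 was also higher, by 2.02 (1.48 to 2.56), while St3gal6 was lower without overlap, as 18.6% of tested genes were. Ftdc1 and Ftdc2, which lie with Cpox between St3gal6 and Gpr15, were not tested. Gpr15 itself had an adjusted p of 0.0832 by limma. The knock-in is at this locus in both groups, and its part in these values was not tested.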
